A study of Homo sapiens with 4 samples.

Results

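The nuclear receptors are transcription factors, many of which are switched by small lipophilic molecules such as steroids, retinoids, thyroid hormone, bile acids, oxysterols and fatty acids. A receptor binds DNA through a zinc finger domain, and its ligand-binding domain exchanges corepressors for coactivators, several of which acetylate histones. In blood cells the retinoic acid, vitamin D, glucocorticoid and PPAR gamma receptors and the NR4A receptors are known for parts in myeloid differentiation, inflammation and lipid handling, and RXR proteins are the shared partners of many of the others. H3K27Ac, the acetylation of a lysine in the tail of histone H3, marks active promoters and enhancers.

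The 45 genes described here were taken from a list of nuclear receptor genes, of 20037 protein-coding genes in the GRCh38.p14 annotation. They were listed by gene family and not by a measured value, but earlier results of these data were known when the list was chosen. They were followed in human MOLM13 cells, an acute myeloid leukemia line with a rearranged MLL1 gene (MLL1-r). H3K27Ac ChIPmentation, in which chromatin is immunoprecipitated and tagged by the Tn5 enzyme, had been carried out on 1 control library and on 1 library of cells that received SNDX-50469 at 500 nM over 16 h. The control carries the treatment label None, and DMSO is named as the vehicle arm of the same experiment. SNDX-50469 is a Menin inhibitor, which blocks the binding of the scaffold protein Menin to MLL1 and its fusion proteins. The comparison asks where H3K27Ac at the receptor genes was found again after the inhibitor. The 2 input libraries were not analysed here, and with 1 library per condition no difference below has a replicate check or a test.

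The values are peaks, that is, stretches that the authors called as enriched over a background. Whether the background came from the same library or from its input is not given. The control list held 245875 peaks covering 224 Mb and the SNDX-50469 list 54061 peaks covering 29.4 Mb, and no read total is given. The weakest control peak had a −log10 p of 2.68 and the weakest SNDX-50469 peak 3.93, so the lists do not end at the same strength. Lower acetylation, acetylation in fewer cells, and a shallower or more strictly called library cannot be told apart from these lists. A gene's window is the gene with flanks of 5 kb, its covered length is the part of the window inside peaks, and its kept share is the percentage of the control covered length that was also covered following SNDX-50469 treatment. Of the markers of the myeloid lineage 11 of 11 had control peaks, between 5.03 and 95.1 kb, against 78.0% of all protein-coding genes with a control peak. EPCAM, ALB, MYOD1 and NEUROD1, markers of other tissues, had none. Of the lymphoid and erythroid markers, CD3E held 9.49 kb and GATA1 0.324 kb in control. CD3E thus held more than the lowest myeloid marker, so covered length did not fully separate the lineages.

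H3K27Ac peaks lay at most of the receptor genes in control cells. NR3C1, the glucocorticoid receptor, PPARG and PPARD, RXRA and RARA, the retinoic acid receptor alpha, were the most widely covered. The NR2E and ROR genes held little or nothing, and RORB, NR1H4, NR2E3, NR2F1, NR3C2 and PGR had no peak in either list. Following SNDX-50469 treatment the covered length was lower at 36 of the 37 genes that had any, and what stayed covered was concentrated at a few sites. Of the 45 genes 37 (82.2%) held a control peak, against 78.0% of all protein-coding genes. A wide peak, of at least 5 kb, overlapped the window of 15 receptor genes (33.3%), against 21.4% of all genes. The receptor windows were longer, with a median of 63.4 kb against 34.1 kb, and a smaller part of the median window was covered in control, 3.38% against 7.94%. The 36 genes with lower covered length after treatment were 97.3% of those with a control peak, against 98.1% of all genes with a control peak. No control length was kept at 13 of the 37 (35.1%), against 44.8% of all such genes. The 6 genes with no peak in either list were 13.3% of the 45, against 20.1% of all genes.

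**Figure D1:**
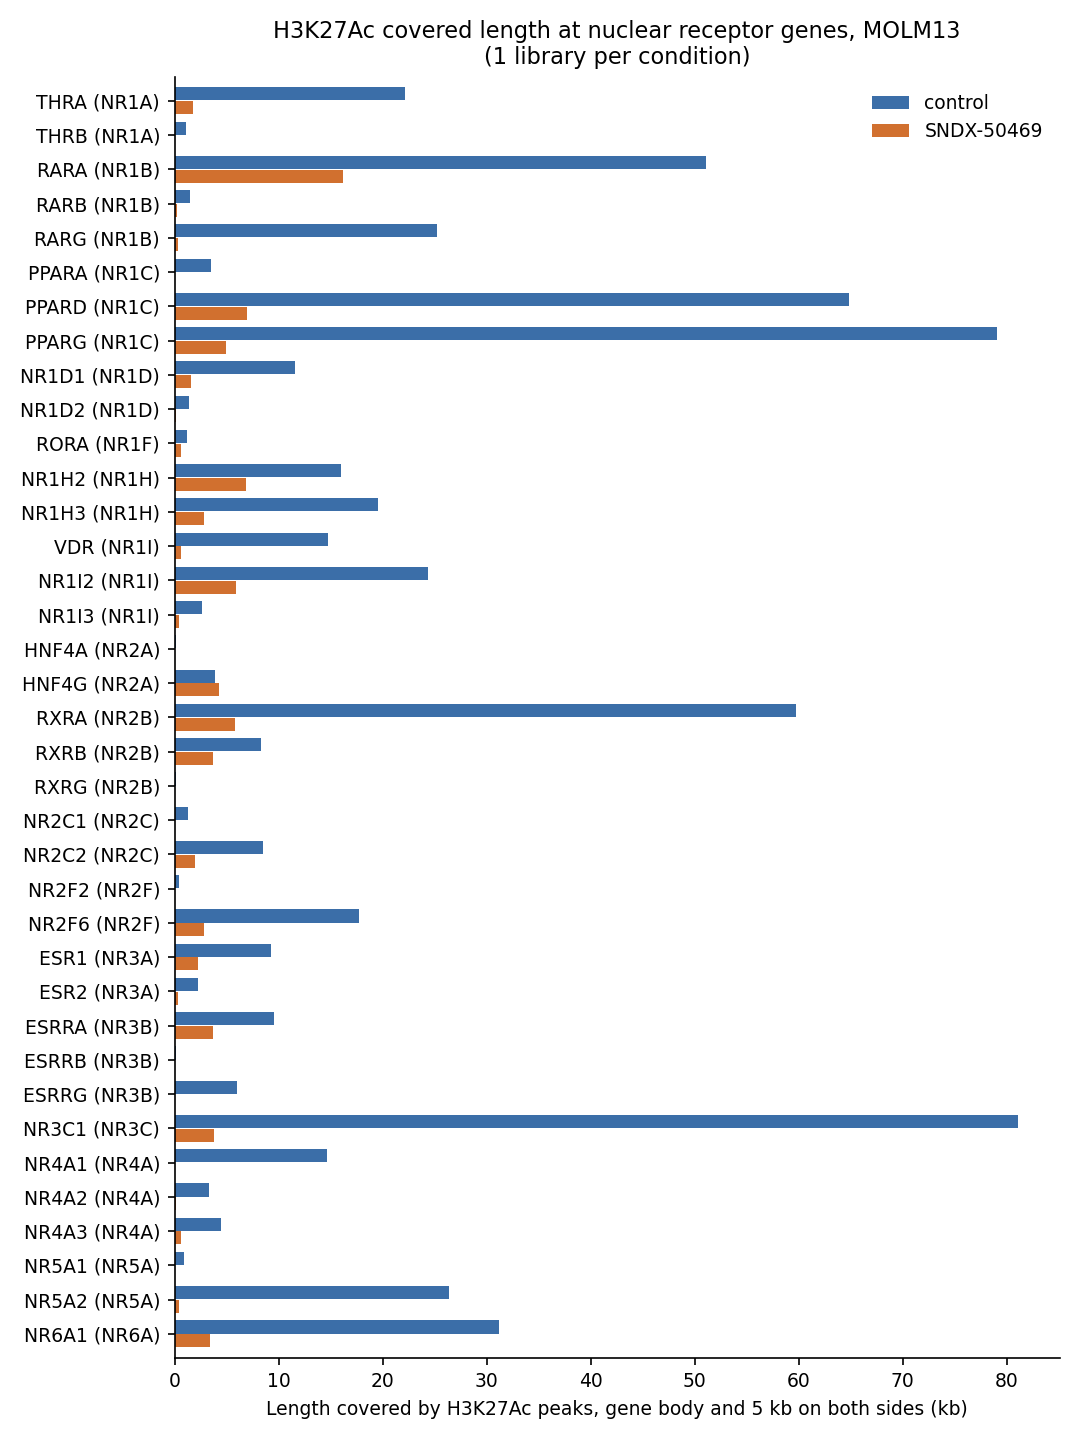
Bars give the length covered by H3K27Ac peaks (kb, from 0) in the gene and its 5 kb flanks for the 37 nuclear receptor genes with a control peak, in the control and the SNDX-50469 library, with the receptor group in parentheses. Control bars reach 81.0 kb at NR3C1, and HNF4G is the gene whose SNDX-50469 bar (4.24 kb) is longer than its control bar (3.92 kb).

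Summed over the windows, 622 kb was covered in control and 81.6 kb following treatment, and 72.3 kb was covered in both, a kept share of 11.6% against 10.6% over all genes. The median gene with a control peak kept 4.62%, against 2.37% of all genes with a control peak. The control length was held by few genes. The 8 largest, NR3C1, PPARG, PPARD, RXRA, RARA, NR6A1, NR5A2 and RARG, together had 418 kb, 67.3% of the total. RARA alone accounted for 22.3% of the kept length. Of the 37 genes 16 had 10 kb or more in control, 16 had 1 to 10 kb and 5 had less than 1 kb.

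The promoters of 7 receptor genes are shown next because the results turn on them. Each sequence is the sense strand, 5′ to 3′, from 250 bases before to 50 bases after an annotated start site, from RefSeq on GRCh38.p14. NR1I2, RXRA and RXRB had their outermost 5′ end inside a peak of both lists, NR3C2 and RORB had no peak in either list, and the NR3C1 and RARA sequences belong to inner start sites that lay in a peak of both lists. The NR3C1 and RARA start sites were chosen after their values were seen. The coordinates are chr3:119781851-119782150 (+) for NR1I2, chr9:134326205-134326504 (+) for RXRA, chr6:33200804-33201103 (-) for RXRB, chr4:148445273-148445572 (-) for NR3C2, chr9:74497085-74497384 (+) for RORB, chr5:143404433-143404732 (-) for the inner NR3C1 start and chr17:40317995-40318294 (+) for the inner RARA start. Capitals mark GC boxes, GGGCGG or on the other strand CCGCCC, which bind Sp1-type factors. The core motif of nuclear receptors, AGGTCA or on the other strand TGACCT, was searched as well and was found in none of the 7.
NR1I2: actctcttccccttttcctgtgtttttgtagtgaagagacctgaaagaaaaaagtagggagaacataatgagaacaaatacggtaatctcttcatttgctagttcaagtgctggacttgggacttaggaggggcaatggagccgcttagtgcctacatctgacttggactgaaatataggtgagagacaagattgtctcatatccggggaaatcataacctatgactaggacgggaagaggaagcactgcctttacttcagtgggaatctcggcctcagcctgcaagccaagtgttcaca
RXRA: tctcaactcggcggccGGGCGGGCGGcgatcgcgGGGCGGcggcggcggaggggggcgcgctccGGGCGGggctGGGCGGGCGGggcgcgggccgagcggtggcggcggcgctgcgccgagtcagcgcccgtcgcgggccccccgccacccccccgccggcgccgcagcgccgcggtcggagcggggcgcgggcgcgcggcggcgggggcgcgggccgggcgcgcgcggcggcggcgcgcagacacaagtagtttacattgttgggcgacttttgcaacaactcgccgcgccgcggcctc
RXRB: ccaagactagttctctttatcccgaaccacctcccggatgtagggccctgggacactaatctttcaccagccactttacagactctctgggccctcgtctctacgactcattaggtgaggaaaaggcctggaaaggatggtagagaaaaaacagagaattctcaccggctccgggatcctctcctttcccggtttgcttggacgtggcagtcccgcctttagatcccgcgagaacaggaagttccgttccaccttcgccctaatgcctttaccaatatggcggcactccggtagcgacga
NR3C2: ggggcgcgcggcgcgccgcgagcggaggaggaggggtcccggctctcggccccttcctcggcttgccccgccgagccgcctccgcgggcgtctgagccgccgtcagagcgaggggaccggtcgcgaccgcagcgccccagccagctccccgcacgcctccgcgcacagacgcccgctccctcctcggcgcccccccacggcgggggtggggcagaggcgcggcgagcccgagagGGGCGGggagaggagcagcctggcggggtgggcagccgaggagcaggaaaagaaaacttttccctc
RORB: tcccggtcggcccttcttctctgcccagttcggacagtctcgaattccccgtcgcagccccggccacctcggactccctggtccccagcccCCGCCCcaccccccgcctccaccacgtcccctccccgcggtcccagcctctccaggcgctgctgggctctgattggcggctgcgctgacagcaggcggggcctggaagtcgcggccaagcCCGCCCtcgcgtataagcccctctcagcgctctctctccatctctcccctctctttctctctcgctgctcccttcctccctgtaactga
NR3C1 (inner start): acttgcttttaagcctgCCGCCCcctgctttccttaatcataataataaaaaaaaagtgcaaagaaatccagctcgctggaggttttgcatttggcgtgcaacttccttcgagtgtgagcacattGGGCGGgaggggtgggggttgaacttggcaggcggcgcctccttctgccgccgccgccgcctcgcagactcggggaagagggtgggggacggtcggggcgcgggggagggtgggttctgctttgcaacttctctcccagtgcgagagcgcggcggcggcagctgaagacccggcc
RARA (inner start): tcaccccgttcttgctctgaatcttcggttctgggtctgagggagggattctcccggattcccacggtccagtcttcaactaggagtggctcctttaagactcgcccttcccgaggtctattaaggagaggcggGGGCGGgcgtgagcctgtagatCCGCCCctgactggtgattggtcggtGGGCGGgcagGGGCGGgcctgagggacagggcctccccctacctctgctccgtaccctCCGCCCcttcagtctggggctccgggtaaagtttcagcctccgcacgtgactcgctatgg

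The RXRA promoter held 6 GC boxes and 65 CpG dinucleotides in its 300 bases, the most of the 7. The NR1I2 promoter held no GC box and 5 CpG, and its base composition was 45.3% GC. The RXRB promoter, also without a GC box, held 17 CpG. The inner RARA and NR3C1 promoters held 5 and 2 GC boxes and 19 and 23 CpG. NR3C2, which had no peak, was 78.0% GC with 42 CpG and 1 GC box, and RORB was 69.0% GC with 24 CpG and 2 GC boxes. NR3C2 and RORB were printed because their promoters had the highest GC content among the genes without a peak. Their high CpG counts therefore follow from that choice and do not describe genes without peaks. The outermost promoters of NR2E3, NR2F1 and PGR, also without a peak, held 8, 12 and 7 CpG.

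Of the thyroid hormone receptor and REV-ERB genes, THRA and NR1D1 lie next to each other on chromosome 17 and share a wide peak, and THRB and NR1D2 lie on chromosome 3. THRA, the thyroid hormone receptor alpha, had 22.1 kb covered in control, 53.0% of its window, and 1.75 kb following treatment, with 7.08% kept. NR1D1 (REV-ERB alpha), a repressor of the molecular clock, had 11.5 kb in control and 1.57 kb following treatment, with 13.6% kept. Their wide peak of 6082 bp, at chr17:40093088-40099169, reached from the 3′ end of THRA across most of NR1D1, so the values of these genes are not independent. THRB, the beta receptor, held 1.05 kb in 5 peaks and nothing following treatment. NR1D2 (REV-ERB beta) held 1.34 kb, and its 5′ end, 1.28 kb from that of NKIRAS1, lay in a control peak of 821 bp of which 160 bp was kept.

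RARA carried the widest peak of any receptor gene and the longest acetylated stretch that was found again after the inhibitor. The gene binds retinoic acid and drives granulocytic differentiation. It had 51.1 kb covered in control, 87.4% of its window, and 16.1 kb following treatment, all of it inside the control peaks, with 31.6% kept. None of its SNDX-50469 peaks reached a −log10 q of 5, and the strongest had 3.26. Its 3 wide control peaks of 21025, 18739 and 8292 bp followed each other through the gene. The 21025 bp peak, chr17:40315263-40336287 with a fold of 7.35 over background, shared 67.2% of its length with the SNDX-50469 list, the 18739 bp peak 8.36% and the 8292 bp peak 5.40%. At the outermost 5′ end 5.21% of 8607 bp within 5 kb was kept. The inner start 9.06 kb further in lay at the edge of a SNDX-50469 peak of 6570 bp, chr17:40318235-40324804, and 5024 bp, 54.3% of the control length within 5 kb of it, was kept. Further SNDX-50469 peaks of 3683 and 3530 bp lay 16.2 to 19.9 and 20.5 to 24.1 kb in, so most of the 16141 bp kept was downstream of that start by more than 5 kb. The last annotated start, 33.0 kb in, lay in a control peak only, with 12.6% kept around it. The SNDX-50469 peak also overlaps LOC105371934, a long non-coding RNA gene, and the lists do not tell the 2 genes apart.

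The other retinoic acid receptors kept almost nothing. RARG, the gamma receptor of epithelia and progenitor cells, had 25.2 kb covered in control, 79.7% of its window, in 9 peaks that included wide ones of 12385 and 7385 bp. Following treatment it held 0.324 kb in 2 peaks, with 1.29% kept and 0 within 5 kb of the 5′ end. The 7385 bp peak also reaches into ITGB7. RARB, the beta receptor, itself induced by retinoic acid, held 1.44 kb in a window of very low coverage (0.185%) and kept none of it.

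The peroxisome proliferator-activated receptors, which sense fatty acids, had the largest covered length of any receptor group, 147 kb, with 7.96% kept. PPARG, the regulator of adipocytes and of macrophage lipid handling, had 79.0 kb in 65 control peaks, 5 of them wide, and 4.89 kb in 5 peaks following treatment, with 6.06% kept. Its 5′ end lay in a control peak of 2573 bp and in no SNDX-50469 peak, and nothing was kept within 5 kb of it. The start site 64.0 kb in lay in the 16190 bp peak chr3:12344510-12360699 and in a SNDX-50469 peak of 1574 bp, and 33.7% of the control length within 5 kb of that start was kept. The longest SNDX-50469 peak of PPARG, 2852 bp, lay 67.4 to 70.3 kb in and did not reach that start, and nothing was kept around the inner starts 14.4 and 14.6 kb in. The start 64.0 kb in is described because a SNDX-50469 peak lay on it.

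PPARD, the delta receptor, had 64.8 kb in 38 control peaks and 6.98 kb in 12 peaks following treatment, with 10.7% kept. Its wide peaks were 9727, 7018 and 5991 bp long. The 9727 bp peak, chr6:35365425-35375151, lay 22.9 to 32.6 kb inside the gene with a fold of 8.54 and rank 709 in the control list, and the 5991 bp peak lay over the 3′ end and shared 44.4% of its length. None of the 4248 bp covered within 5 kb of the PPARD 5′ end was kept, so its kept length lay in the gene body and at its 3′ end. PPARA, the alpha receptor of fatty acid oxidation, held 3.49 kb in 8 peaks, the widest of 937 bp, and nothing following treatment.

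The liver X receptors, which sense oxysterols and drive cholesterol efflux, had the highest kept share of the groups with over 10 kb in control, with 9596 of 35491 bp kept. NR1H2 (LXR beta) had 15.9 kb in control, 94.2% of its window and the densest coverage of the 45, and 6.82 kb following treatment, with 42.8% kept. Its kept share was 41.8% within 5 kb of the 5′ end and 44.1% in the rest, in 10 SNDX-50469 peaks of 99 to 1548 bp. None of the 10 reached a −log10 q of 5. Of the 6819 bp kept, 850 bp lay in the gene body and 5969 bp in the flanks. Its wide peaks also overlap NAPSA and POLD1, whose share of the signal cannot be told apart. NR1H3 (LXR alpha), the macrophage form, had 19.5 kb in control and 2.78 kb following treatment, with 14.2% kept. Of this 0 lay within 5 kb of its 5′ end, although 4 of 4 annotated starts lay in control peaks. Its kept length was mostly a 2517 bp peak over its 3′ end, chr11:47267799-47270315, which also covers the beginning of MADD. NR1H4, the bile acid receptor FXR, had no peak.

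Among the vitamin D and xenobiotic receptors NR1I2 and VDR differed. NR1I2, the pregnane X receptor known for drug metabolism in liver and intestine, held the second longest peak of the 45 genes, 20330 bp at chr3:119778379-119798708. It had 24.3 kb covered in control and 5.91 kb following treatment, with 24.3% kept. Of the length within 5 kb of its 5′ end 61.9% was kept, against 2.49% of the rest, and a SNDX-50469 peak of 4425 bp covered the 5′ end. No SNDX-50469 peak of NR1I2 reached a −log10 q of 5. VDR, the vitamin D receptor that promotes monocytic differentiation, had 14.8 kb in 32 control peaks and 0.572 kb following treatment, with 0.162% kept. The wide VDR peak of 9220 bp lay past the 3′ end of the gene, over LINC02354, with only its edge inside the window, and shared nothing with SNDX-50469 peaks. NR1I3, the constitutive androstane receptor, had 0 covered in its gene body. The 2.67 kb in its window lay past its 3′ end, with 16.7% kept in a single 447 bp peak. RORA and RORB, orphan receptors of the clock and of lymphoid and retinal cells, had 1.21 kb and 0 in control, and the 3 SNDX-50469 peaks of RORA lay apart from its control peaks.

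**Figure D2:**
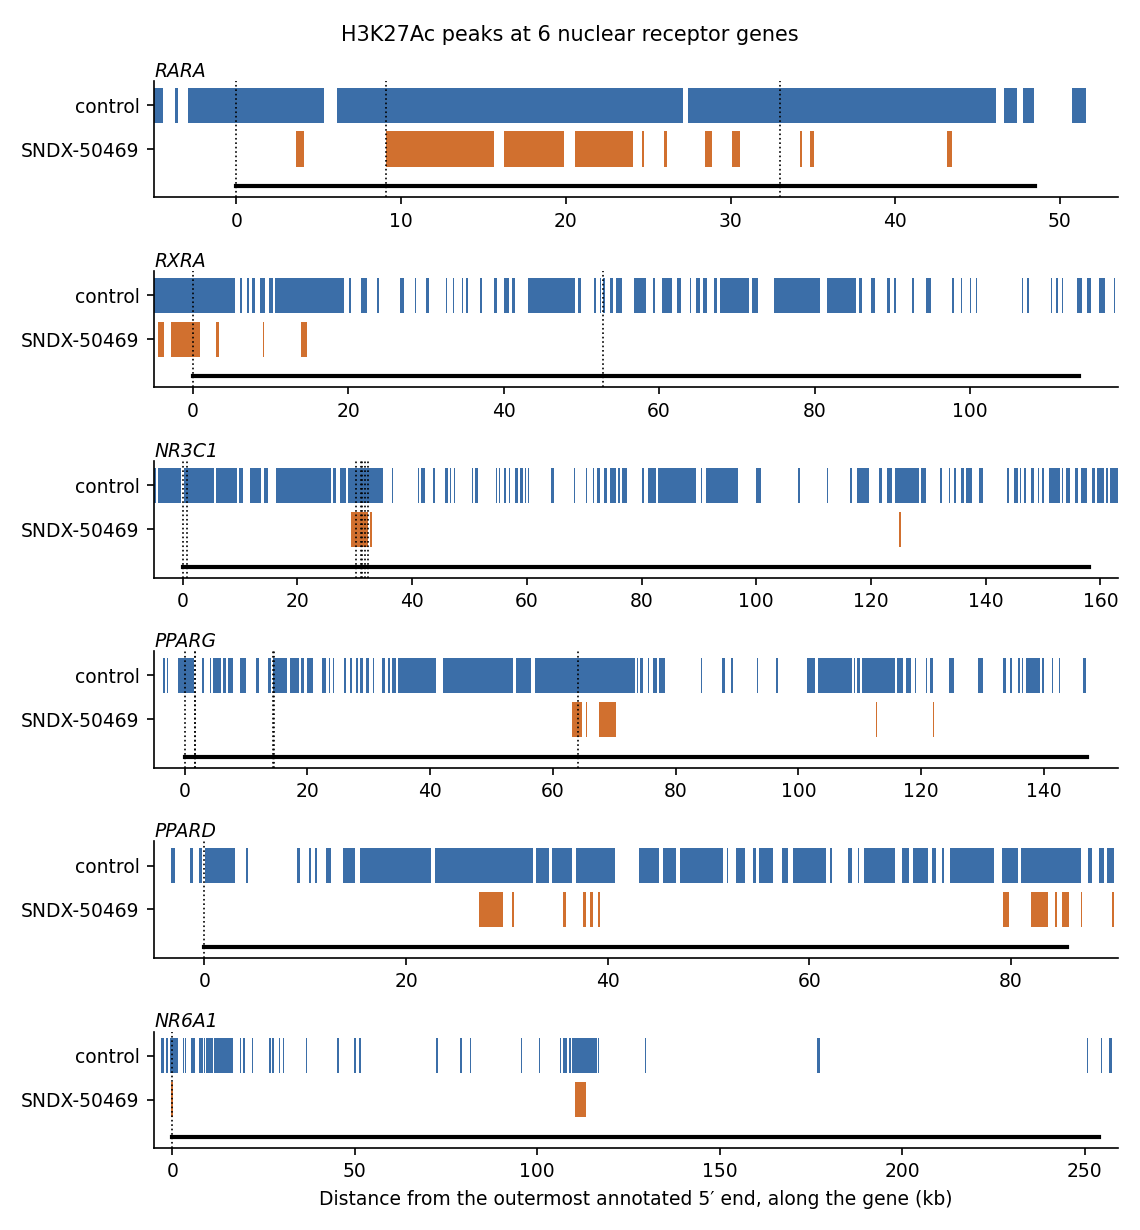
Blocks mark H3K27Ac peaks in the control (upper row) and SNDX-50469 (lower row) lists along 6 of the widest covered receptor genes, against distance from the outermost annotated 5′ end (kb), with a black bar for the gene and dotted lines for annotated start sites. A SNDX-50469 peak lies over an inner start site 9.06 kb in at RARA, with further peaks downstream, about 31.0 kb in at NR3C1 and 64.0 kb in at PPARG, at RXRA the longest lies over the outermost 5′ end, and at PPARD and NR6A1 the longest lie inside the gene.

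RXRA and RXRB, the retinoid X receptors that pair with the retinoic acid, vitamin D, PPAR and liver X receptors, kept 49.0% and 44.7% of the control length near their 5′ ends. RXRA had 59.7 kb in 63 control peaks, 4 of them wide, and 5.77 kb in 5 peaks following treatment, with 9.66% kept. All 10001 bp within 5 kb of its 5′ end was covered in control and 49.0% of it was kept, against 1.76% of the rest. The peak over the RXRA 5′ end was 13712 bp long in control and 3735 bp following treatment. RXRB had 8.26 kb covered in control, all within 5 kb of the 5′ end, and 3.70 kb following treatment, with 44.7% kept. Its 5′ end lies 14 bp from that of SLC39A7, a zinc transporter gene read in the opposite direction, and HSD17B8 starts 3.80 kb away, so its 9170 bp control peak covers the beginnings of 3 genes. No SNDX-50469 peak of RXRA or RXRB reached a −log10 q of 5. RXRG held a single control peak of 89 bp.

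The remaining NR2 genes fell into covered and nearly bare ones. NR2C2 (TR4), an orphan receptor expressed in many tissues, had 8.52 kb in control and 1.96 kb following treatment, with 21.4% kept. Its 5′ end lay in a SNDX-50469 peak of 1822 bp that ranked 440 by fold of the 54061 in its list, and 48.9% was kept within 5 kb of it, against 0 of the rest. That peak also overlaps FGD5-AS1. NR2F6 (EAR2), an orphan repressor known in blood progenitors, had 17.7 kb in control, with a wide peak of 6845 bp over its 5′ end, and 2.85 kb in 7 peaks following treatment. It kept 15.8% near the 5′ end and 16.4% elsewhere. NR2C1 (TR2) held 1.26 kb, NR2F2 (COUP-TFII) 0.370 kb and HNF4A, the liver and gut regulator, 0.124 kb, none of it kept. NR2E1 (TLX), of neural stem cells, had no control peak and 1 SNDX-50469 peak of 206 bp, and NR2E3 of photoreceptors and NR2F1 (COUP-TFI) had none.

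HNF4G was the exception to the fall. It held 3.92 kb in 15 control peaks and 4.24 kb in 11 SNDX-50469 peaks, and no base was shared. The longest of the SNDX-50469 peaks was 663 bp, and none reached a −log10 q of 5. HNF4G, a receptor of kidney and gut, is the only gene of the 45 on chromosome 8.

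NR3C1, the glucocorticoid receptor, was covered over more bases than any other receptor gene. In control 81.0 kb lay in 77 peaks, 5 of them wide, and following treatment 3.81 kb lay in 5 peaks, with 4.62% kept. Its outermost 5′ end lay in neither list's peaks, and 1.90% was kept within 5 kb of it. The strongest peak of any receptor gene in control, chr5:143400598-143406751 with a fold of 9.80 and rank 327, lay about 31.0 kb in, over 5 of the 7 annotated starts, and 51.9% of its 6154 bp was shared. Following treatment a peak of 3008 bp at chr5:143403236-143406243, rank 609 in its list, lay over the same 5 starts, and 37.7% to 42.8% of the control length within 5 kb of each was kept. The other 4 wide peaks of NR3C1 shared 0 to 3.29% of their length. The peak over the inner starts also overlaps LOC128966704, a gene annotated there. NR3C2, the mineralocorticoid receptor, and PGR, the progesterone receptor, had no peak in either list.

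The estrogen receptor and estrogen receptor-related genes held less. ESRRA, a regulator of mitochondrial genes, had 9.56 kb in control and 3.66 kb following treatment, with 34.4% kept and 51.6% kept within 5 kb of the 5′ end. Its 5′ end lay between control peaks and inside a SNDX-50469 peak of 2445 bp, chr11:64304278-64306722, rank 529, which shared 84.7% of its length with control peaks. The neighbouring gene CATSPERZ reaches into that peak. The other SNDX-50469 peak, of 1218 bp, lay past the 3′ end of ESRRA and overlaps TRMT112 and PRDX5. Of the 3288 bp kept, 1182 bp lay in the ESRRA gene body and 2106 bp in the flanks. ESR1, the estrogen receptor alpha, had 9.28 kb in 19 control peaks and 2.24 kb in 9 SNDX-50469 peaks, but 0.571% was kept, since the peaks of the lists mostly lay apart. ESR2 (beta) held 2.26 kb with 14.6% kept, ESRRG 6.02 kb and ESRRB 0.154 kb with none kept.

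The immediate early NR4A receptors, which act without a known hormone and are known as tumor suppressors in myeloid cells, kept little of their control length. NR4A1 (NUR77) had 14.6 kb in 18 control peaks and no SNDX-50469 peak. NR4A2 (NURR1) had 3.30 kb in control and 0.131 kb following treatment. NR4A3 (NOR1) had 4.45 kb in 1 control peak just upstream of its 5′ end and 0.584 kb following treatment, with 13.1% kept. Over the 3 genes 3.20% of 22.4 kb was kept, against 10.6% of the length over all genes. Their median kept share was 3.97%, against 2.37% of all genes with a control peak. Of all such genes 44.8% kept nothing, so a low kept share was not particular to NR4A.

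NR5A2 and NR6A1 are not known as myeloid genes, yet both held wide peaks far inside the gene. NR5A2 (LRH-1), of liver, pancreas and early embryo, had 26.4 kb in control, with a wide peak of 12677 bp that lay 119 to 132 kb from its 5′ end, and 0.921% kept. NR6A1 (GCNF), a repressor of germ cells and early embryo, had 31.2 kb in control and 3.39 kb following treatment, with 10.9% kept. Its kept length was nearly all in a 3004 bp SNDX-50469 peak at chr9:124658042-124661045, 110 to 113 kb in. With a fold of 7.65 and rank 140 of 54061 this was the strongest SNDX-50469 peak at any receptor gene, and it lies over MIR181A2HG, the host transcript of a pair of miR-181 genes, so it need not belong to NR6A1. NR5A1 (SF-1), the adrenal and gonadal regulator, held 0.880 kb with none kept, and NR0B2 (SHP), a corepressor-like receptor of bile acid feedback, had no control peak and 1 SNDX-50469 peak of 196 bp.

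By subfamily, the thyroid hormone-like NR1 genes held 333 kb in control with 13.9% kept, and the RXR-like NR2 genes 100 kb with 14.1% kept. The steroid receptor-like NR3 genes held 108 kb with 6.85% kept. NR4 kept 3.20% of 22.4 kb, NR5 0.891% of 27.3 kb and NR6, a single gene, 10.9%. Near the 5′ ends NR2 kept 36.0% and NR1 18.5%, and away from them NR2 kept 3.53% and NR1 12.8%. Single genes set the values away from the 5′ ends, which were 8.29% for NR1 without RARA and 8.55% for NR2 without RXRA. Without NR3C1 the NR3 genes kept 13.5% of their control length, and without ESRRA 4.18%. Wide control peaks lay at 9 of 18 NR1 genes, 3 of 12 NR2 genes, 1 of 8 NR3 genes, none of 3 NR4 genes, 1 of 2 NR5 genes and at NR6A1. Over all genes the share was 21.4%. The median window was 66.0 kb in NR1, 43.5 kb in NR2 and 184 kb in NR3, against 34.1 kb over all genes, and differences between subfamilies were not tested.

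Over all receptor genes 21.3% of the 129 kb covered within 5 kb of the 5′ ends was kept, against 9.10% of the 493 kb elsewhere. The same shares over all genes were 19.6% and 7.14%. With every annotated start counted as a 5′ end, the receptor shares were 20.8% near and 7.47% elsewhere. Gene by gene, measured from the outermost 5′ end only, the order was mixed. Of the 17 genes with at least 1 kb covered in both stretches, the share was higher near the 5′ end at 6, NR1I2, ESRRA, RXRA, NR2C2, NR1D1 and THRA, lower at 10 and 0 in both stretches at NR4A1. Without RARA 6.47% was kept away from the 5′ ends. The order of the sums turned when the peaks were limited to a −log10 q of 5 or more, with 5.07% near and 6.99% elsewhere.

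**Figure D3:**
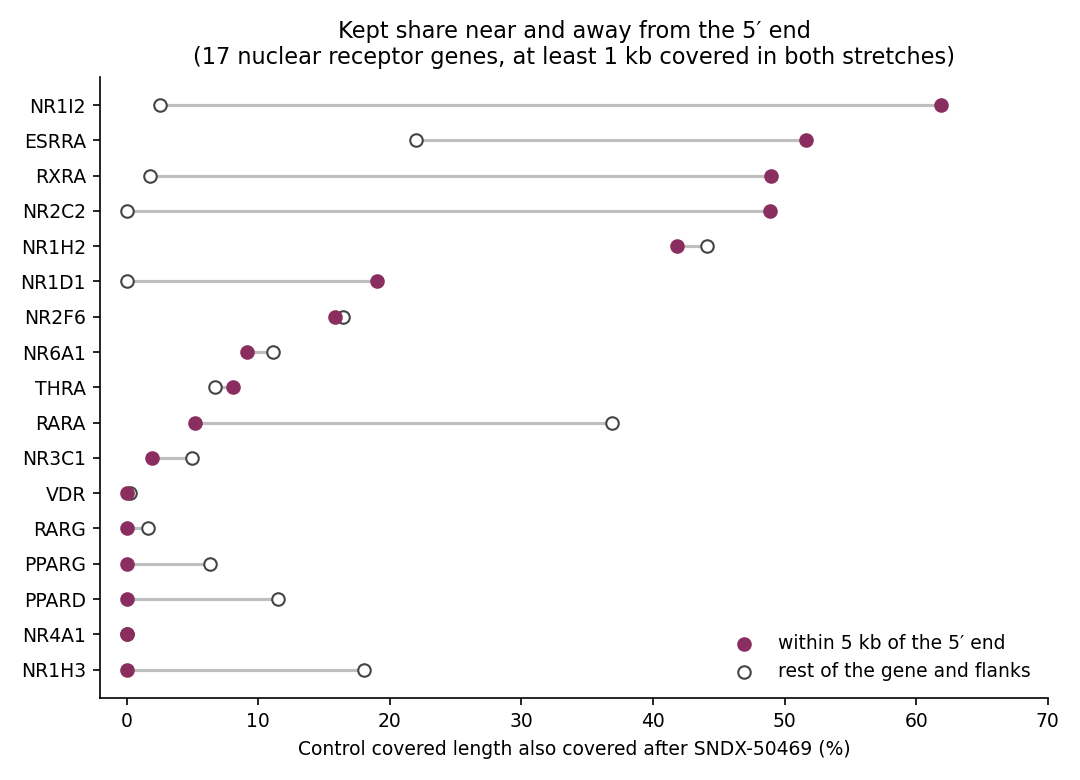
Points give the kept share (percent of the control covered length) within 5 kb of the outermost 5′ end (filled) and in the rest of the window (open) for the 17 nuclear receptor genes with at least 1 kb in both stretches. NR1I2 (61.9% and 2.49%) and RXRA (49.0% and 1.76%) kept length at the 5′ end, and RARA (5.21% and 36.9%) kept it elsewhere.

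The outermost 5′ end itself lay in a control peak at 14 of the 45 genes (31.1%), against 38.9% of all genes with a known strand, and in a SNDX-50469 peak at 8 (17.8%), against 17.3%. These 8 were NR1H2, NR1I2, RXRA, RXRB, NR2C2, NR2F6, ESRRA and NR6A1, and all but ESRRA were also in a control peak. Their SNDX-50469 peaks over the 5′ end were 385 bp at NR6A1, 477 bp at NR2F6, 749 bp at NR1H2 and 1822 to 4425 bp at the others. Counting every annotated start of the 40 genes with an entry, 35 of 95 starts lay in a control peak and 16 in a SNDX-50469 peak. Of all 22199 annotated starts 41.5% and 18.4% did.

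The promoter sequences of the starts were compared with these states as a description, since starts of 1 gene lie close together and share sequence. The 16 starts in a SNDX-50469 peak, from 10 genes, had a median of 26 CpG in 300 bases, the 20 starts in a control peak only 12 and the 59 in neither 12. Over all annotated starts the medians were 27, 24 and 15. A GC box was present in 68.8% of the starts in a SNDX-50469 peak, 60.0% of those in a control peak only and 42.4% of those in neither. The shares over all annotated starts in the same states were 70.3%, 62.6% and 49.1%, and 56.3% over all 22199 promoters. The nuclear receptor core motif AGGTCA was present in 0 of the 16, in 3 of the 20 (15.0%) and in 12 of the 59 (20.3%), against 11.9% of all promoters and 9.43% of all promoters in a SNDX-50469 peak.

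**Figure D4:**
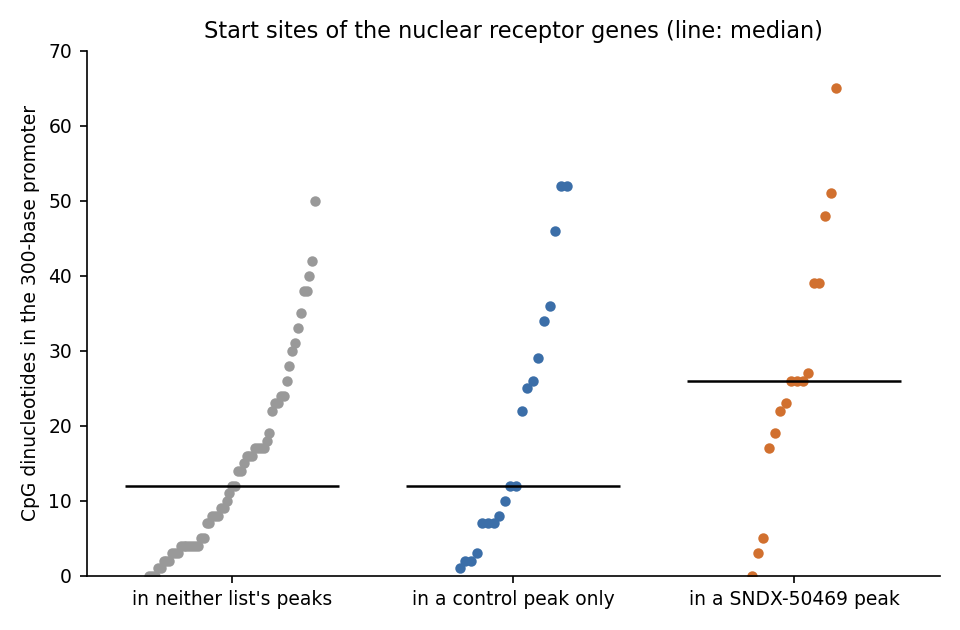
Each point is an annotated start site of a nuclear receptor gene, placed by the number of CpG dinucleotides in its 300-base promoter (vertical axis, from 0) and grouped by whether the start lay in neither list's peaks (59 starts), in a control peak only (20) or in a SNDX-50469 peak (16), with a line at the median. The medians are 12, 12 and 26, and the 3 groups overlap over most of their range.

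Wide control peaks at the receptor genes were found again more often than narrow ones, as over all genes. A control peak that overlapped a SNDX-50469 peak by 1 bp or more counted as kept, and 47 of the 569 control peaks of the receptor genes were (8.26%, Wilson 95% interval 6.27 to 10.8, counting error only), against 8.88% in the windows of all genes. Of the 340 peaks under 500 bp 4 were kept (1.18%), of the 157 between 0.5 and 2 kb 10 (6.37%), of the 40 between 2 and 5 kb 13 (32.5%) and of the 32 of at least 5 kb 20 (62.5%, Wilson 95% interval 45.3 to 77.1). Over all genes the shares were 2.18%, 9.88%, 38.2% and 69.0%. The receptor values were below those of all genes in each width class, and each all-gene value lay inside the Wilson interval of the receptor genes. These intervals take peaks as independent, although many lie at the same gene, 77 at NR3C1 and 65 at PPARG. They are therefore too narrow to judge a difference, which was not tested. A longer peak has more bases in which to overlap another list. By length, 19.4% of the wide peaks and 8.28% of those of 2 to 5 kb were kept, against 20.0% and 12.0% over all genes. Of the 113 SNDX-50469 peaks at the receptor genes 84 shared bases with control peaks, with a median width of 381 bp, and 29 did not, with a median of 206 bp. The same counts were not made over all genes, so they are not read as particular to the receptor genes.

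**Figure D5:**
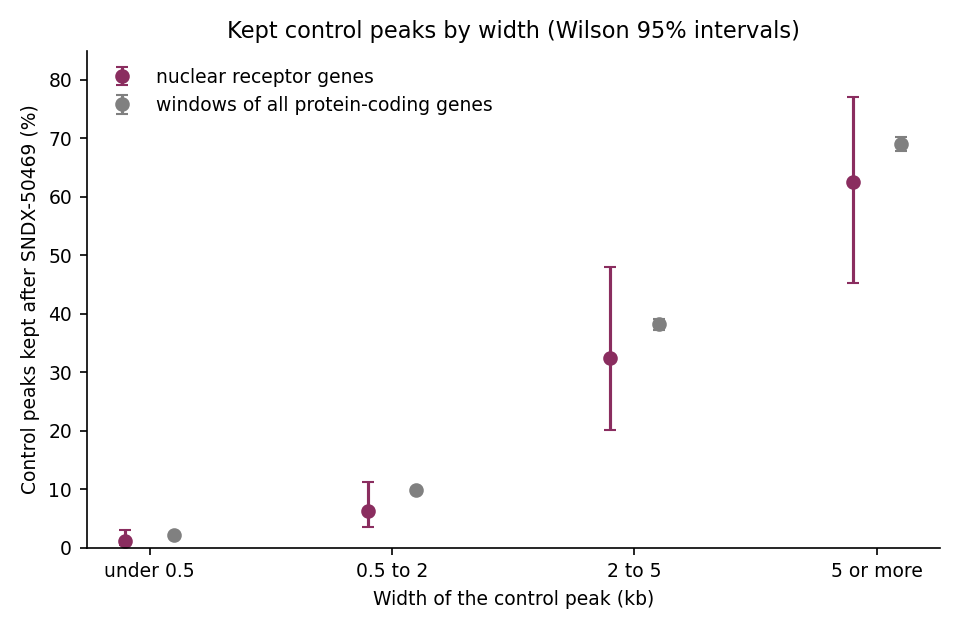
Points give the percent of control peaks counted as kept, by width of the control peak (kb), at the nuclear receptor genes and in the windows of all protein-coding genes, with Wilson 95% intervals for counting error only. The share at receptor genes rises from 1.18% under 0.5 kb to 62.5% at 5 kb or more, and that of all genes from 2.18% to 69.0%.

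The strongest control peaks lay at few of the receptor genes, as over all genes. When the weakest control peaks were dropped until both lists covered an equal length, 9 receptor genes (20.0%) held a control peak, against 17.2% of all genes. They were RARA, NR1H2, NR1H3, RXRA, NR2C2, NR2F6, ESRRA, NR3C1 and PPARD. All of these peaks were kept, against 94.1% of such peaks in the windows of all genes, and the kept length was 51.2% against 40.4%, from 19.5% at NR2F6 to 67.2% at RARA. At receptor genes 27 control peaks and 6 SNDX-50469 peaks reached a −log10 q of 5. The control peaks lay at 19 genes (42.2%), against 36.8% of all genes, and the SNDX-50469 peaks at 6 (13.3%), against 5.19%. The 6 were PPARD, NR2C2, NR2F6, ESRRA, NR3C1 and NR6A1. The receptor windows were longer, with a median of 63.4 kb against 34.1 kb, and at several of the 6 the peak also overlaps another gene. The difference in shares was not tested.

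Genes that work with the receptors were described in the same way. Over all genes, 78.0% held a control peak and 10.6% of the control length was kept. Of all genes with a control peak 44.8% kept nothing, and the median kept share was 2.37%. Of 16 coregulator genes 16 held a control peak, 460 kb in all, with 11.1% kept and a median of 4.09%. Their windows were long, with a median of 165 kb against 34.1 kb over all genes. The largest was NCOA2, a coactivator of the p160 family, with 177 kb and 17.8% kept. The highest shares were those of MED1, the Mediator subunit that binds receptors, at 24.4%, and of the corepressor NCOR1 at 20.3%. NCOA2, on chromosome 8, held 31.5 of the 51.2 kb kept. Of 13 genes of retinoid and vitamin D enzymes and binding proteins 9 held a control peak, 60.2 kb in all, and 7 of these kept nothing. RDH10, which oxidizes retinol, had 25.4 kb with 28.3% kept. It is also on chromosome 8 and held 7.18 of the 7.77 kb kept in this list. DHRS3, which reduces retinal, had 25.3 kb with none kept, and ALDH1A3, which makes retinoic acid, kept 19.6%.

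Of 14 target genes of liver X receptors and PPARs 12 held a control peak, 194 kb in all. Of this length 11.4% was kept, against 10.6% over all genes. Nothing was kept at 3 of the 12, against 44.8% of all genes with a control peak. CPT1A, of fatty acid import into mitochondria, had 34.2 kb with 15.6% kept, and the sterol exporter ABCG1 29.5 kb with 1.58% kept. The highest shares were at SREBF1, the regulator of lipid synthesis, with 45.4%, and MYLIP, which degrades the LDL receptor, with 17.6%. SREBF1 held 10.8 of the 22.1 kb kept in this list. All of the 11 glucocorticoid receptor targets and chaperones held a control peak, against 78.0% of all genes. They had 213 kb in all, with 17.4% kept, against 10.6% over all genes, and a median of 16.0%. FKBP5, a cochaperone induced by glucocorticoids, had 85.4 kb with 16.0% kept, and SGK1, an induced kinase, 30.9 kb with none kept. HSP90AB1, the chaperone of the receptor, kept 42.7% and the phosphatase DUSP1 37.3%. The glucocorticoid list had a higher median than the 2.37% of all genes, while NR3C1 itself kept 4.62%.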

How the data were processed

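H3K27Ac ChIPmentation of MOLM13 cells was analysed from 1 broad peak list per library, 1 control and 1 following SNDX-50469 treatment, grouped by title. According to the supplementary methods, TopHat2 mapped the reads to the UCSC build hg38. The submitters' processing notes name Trim Galore 0.6.5, Bowtie2 2.3.4.2, Picard 2.9.0, MACS2 2.1.2 and GRCh38, without saying what each was used for. Calling options and the use of an input are not given in the sources used here. For each peak the authors deposited a ratio, its fold over the background used in calling. The authors deposited the −log10 p and −log10 q as well. The deposited score is 10 times the −log10 q without decimals and was not used on its own. Replicates were not pooled. Values are not scaled between libraries, so positions were compared, and folds and ranks were used within a list.

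Overlaps and sums were computed in Python 3.11.15 (pandas 2.3.3, numpy 2.4.6) and intervals with scipy 1.17.1. Genes were the 20037 protein-coding genes of RefSeq GRCh38.p14, the build of hg38. Strand came from the RefSeq promoter table or, by symbol, from a GENCODE annotation of another build from which no coordinate was used, and 19666 genes had one. The 5′ end is the outermost annotated end. Of the 45 receptor genes 40 had promoter entries, and NR0B2, HNF4G, VDR, NR4A2 and NR2F6 did not. Sums count overlapping windows once. The overlap code was tested on simulated intervals. With 1 library per condition no test was run, and Wilson 95% intervals cover counting error only.

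Every receptor gene is named. Described in full were the 12 with the longest control covered length, those with a control peak of at least 5 kb and those whose 5′ end lay in a SNDX-50469 peak. Of each gene list, the 2 with the longest control length and the 2 with the highest kept share (at least 1 kb in control) were named, except that 1 list gene and 1 marker are not reported here. The members, lists and motifs were chosen with earlier results of these data known. Alternatives were a −log10 q of at least 5, a common −log10 p cutoff, a trimmed control list, other flanks, distances, widths and overlaps, chromosome 8 left out and, chosen after seeing the data, every annotated start, RARA left out and subfamilies without single genes.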

Additional observations from a re-analysis of the deposited data

How the results depend on the processing

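No paired analysis was possible because control and treated cells gave 1 library apiece. Of 67 alternative values 39 stayed within counting error or within 1.5 times the count, and 28 moved. With a −log10 q of at least 5 in both lists, 19 receptor genes had a control peak, 22.2% of control peaks and 6.42% of the length were kept, 5.07% near the 5′ ends and 6.99% elsewhere, the median gene kept 0, and 5 and 2 genes had a 5′ end in a control and in a SNDX-50469 peak. With the control list limited to the −log10 p range of the treated list, 5 genes kept nothing, 33.3% of control peaks and 17.8% of the length were kept, 24.9% near the 5′ ends and 15.1% elsewhere, and the median was 14.6%. With the control list trimmed to the covered length of the SNDX-50469 list, 9 genes had a control peak, 5 a wide one and 0 kept nothing, 100% of peaks and 51.2% of the length were kept, 55.6% near the 5′ ends and 49.5% elsewhere, the median was 51.9%, and 3 genes had a 5′ end in a control peak. A wide peak of at least 10 kb was found at 7 genes, 1.23% of control peaks had at least 50% of their length shared, 31.8% was kept within 1 kb of the 5′ ends, the median without flanks was 2.49%, and without RARA 6.47% was kept away from the 5′ ends. Wherever a setting gave both shares, the share near the 5′ ends was above that elsewhere in all but the −log10 q setting. The kept shares thus depend on where each list ends, which the peak lists alone do not fix. Flanks of 20 kb and leaving out chromosome 8 moved no value. Depth is unknown, since no read totals are given.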
